A study of Homo sapiens with 32 samples.

Results

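Mediator and Integrator are large multi-subunit complexes that work at opposite ends of the early life of an RNA polymerase II transcript. The genes for their subunits were taken as all human genes whose symbol is MED or INTS followed by a number and that have a RefSeq transcript in the deposited tables. There were 46 of them among 18854 genes with a matched transcript, 30 for Mediator and 16 for Integrator. All 46 passed the filter on low counts that left 14318 genes for testing. Another 27 symbols that fit the pattern, pseudogenes and antisense genes, had no transcript in the tables.

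The libraries came from 4 human cancer cell lines, A375 (melanoma), Cal51 and MDA-MB-231 (breast cancer) and DLD1 (colorectal cancer). Each line was used as cells labelled G579S, which the design text calls resistant to inhibition of the kinase CDK11, and as cells labelled wild-type, which it calls sensitive. CDK11 acts with L-type cyclins in transcription and splicing, and OTS964 is a small-molecule inhibitor of it. Cells of each genotype were given OTS964 (100 nM) or DMSO during 6 h, which makes 16 groups with a pair of libraries apiece. All were grown in DMEM with serum. The labels do not say whether a G579S line is 1 clone. They also leave unsaid whether paired libraries stem from different cultures, so a p-value here covers the scatter of these samples alone, and that scatter may be technical.

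As background, Mediator carries signals from DNA-bound activators to RNA polymerase II. Its head and middle modules contact the polymerase, the tail binds activators, MED14 holds the 3 together, and a separable kinase module of CDK8 or CDK19, cyclin C, MED12 and MED13 gates the contact with the polymerase. Integrator binds polymerase paused near the start of genes and at small nuclear RNA genes. INTS11 cuts the nascent RNA there, and a phosphatase PP2A held by INTS6 and INTS8 removes phosphates from the polymerase and the pausing factors.

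Promoters of 4 subunit genes are shown because their mRNAs moved in opposite directions under OTS964. In the Mediator middle module MED26 and MED7 rose and MED10 fell, and in the head module MED17 fell. The sequences are the 250 bases before the RefSeq gene start on the gene's own strand in GRCh38.p14, with every motif that was searched in capitals. The windows are chr19:16628205-16628454 (minus strand) for MED26, chr5:157142866-157143115 (minus) for MED7, chr11:93784032-93784281 (plus) for MED17 and chr5:6378548-6378797 (minus) for MED10.
MED26: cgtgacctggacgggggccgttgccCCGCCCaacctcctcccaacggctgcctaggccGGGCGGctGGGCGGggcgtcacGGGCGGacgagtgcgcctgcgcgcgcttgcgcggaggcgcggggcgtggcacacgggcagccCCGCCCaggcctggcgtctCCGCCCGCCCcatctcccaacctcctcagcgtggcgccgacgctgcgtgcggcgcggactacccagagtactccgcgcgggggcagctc
MED7: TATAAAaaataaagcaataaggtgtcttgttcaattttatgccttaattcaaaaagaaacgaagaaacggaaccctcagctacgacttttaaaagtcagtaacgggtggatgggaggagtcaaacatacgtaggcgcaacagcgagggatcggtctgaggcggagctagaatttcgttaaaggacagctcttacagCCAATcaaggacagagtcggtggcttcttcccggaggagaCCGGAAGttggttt
MED17: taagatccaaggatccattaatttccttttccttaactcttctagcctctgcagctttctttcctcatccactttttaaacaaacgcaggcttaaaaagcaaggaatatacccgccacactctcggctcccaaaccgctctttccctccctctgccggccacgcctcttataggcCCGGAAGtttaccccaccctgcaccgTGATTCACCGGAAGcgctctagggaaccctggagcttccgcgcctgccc
MED10: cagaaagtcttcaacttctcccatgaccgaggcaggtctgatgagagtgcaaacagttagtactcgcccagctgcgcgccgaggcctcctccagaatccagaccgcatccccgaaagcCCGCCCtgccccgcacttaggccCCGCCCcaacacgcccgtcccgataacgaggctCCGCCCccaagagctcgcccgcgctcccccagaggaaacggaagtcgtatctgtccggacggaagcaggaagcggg

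The motifs named here were searched on both strands, with overlapping matches allowed to share letters, in these windows for the 32 subunit genes and 11587 tested genes with an entry. The ETS-type motif CCGGAAG was present in 8 of 32 subunit promoters (25.0%), against 14.8% of all tested promoters. MED7 and MED17, whose mRNAs went opposite ways, both carried it. The GC box GGGCGG was in 62.5% of subunit promoters and 66.1% of all, the CCAAT box in 40.6% and 34.8%, the cAMP response element TGACGTCA in 6.25% and 2.77%, and the letters TATAAA in 6.25% and 6.02%. The NRF1 palindrome was in 3.13% and 1.83%, the AP-1-type TGANTCA in 6.25% and 4.04%, and the CArG box in 3.13% and 1.06%. MED26 and MED10 carried GC boxes only, and one gene rose and the other fell. These matches are descriptions of letters in a window, not of binding.

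A library held 16091376 to 29742687 estimated reads, of which 14333298 to 26237375 were on transcripts matched to genes. Levels are given as CPM, counts scaled to library size with TMM factors, or as TPM, which also divides by transcript length. Levels of different genes are compared in TPM alone. The labels of 1 line went against its markers. In the DLD1-labelled wild-type libraries, 6 melanocyte markers summed to 247 to 396 CPM with OTS964 and 707 to 754 CPM with DMSO, and SOX10 alone gave 737 CPM in DMSO replicate 1, while MLANA and TYR were at or near 0 as in A375. The melanocyte sum in that replicate was thus nearly all SOX10. A375 wild-type stood at 211 to 242 CPM with OTS964 and 594 to 618 CPM with DMSO. The 7 colorectal markers, CDX1 at 0 throughout, summed to 1872 to 1873 CPM in DLD1 G579S with OTS964 and 1364 to 1367 CPM with DMSO, against 82.4 to 102 CPM and 33.9 to 51.0 CPM in the wild-type libraries under the same treatments. Most of the DLD1 G579S sum was EPCAM (685 and 693 CPM with DMSO) and CDH1 (557 and 545 CPM). CDX2 had 96.1 and 96.5 CPM there and KRT20 28.6 and 29.1 CPM. VIL1 (0.386 and 0.474 CPM) and LGALS4 (0.276 and 0.263 CPM) were near 0. The colorectal list was not specific to DLD1, as Cal51 wild-type summed to 656 to 721 CPM with OTS964 and 270 to 314 CPM with DMSO. With DMSO the 4 mesenchymal markers summed to 3596 to 3713 CPM in DLD1 wild-type and 3484 to 3536 CPM in A375 wild-type. In DLD1 G579S they summed to 13.5 to 13.9 CPM. By these and the melanocyte sums the 4 DLD1 wild-type libraries stood near A375. The colorectal sum was lower in A375 wild-type, at 0.151 to 0.223 CPM with DMSO. Those 4 libraries are called DLD1-labelled below, and a count of lines that includes them may not count distinct cells. The total counts across lines and the tests of 1 line against the others are given also without them. Counts by module and by complex are given with them. Over these genes, libraries of 1 group were widest apart in the Cal51 G579S DMSO pair, where 10 of the 46 differed over 2-fold and replicate 2 listed MED13L at 0 against 29.9 CPM in replicate 1. Over all genes the MDA-MB-231 wild-type OTS964 pair was the widest, with an SD of the log2 difference of 1.26, against 1.07 in the Cal51 pair.

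Whether inhibition of CDK11 changes the mRNAs of these 2 complexes was asked first in wild-type cells across the 4 lines. OTS964 lowered the mRNAs of most Mediator subunits that bind the polymerase, led by MED17, MED4 and MED10, and raised a few, led by MED26 and MED7. In Integrator the arm gene INTS15 and the phosphatase-binding INTS6 fell most clearly, while INTS1 and the endonuclease INTS11 rose. By edgeR's quasi-likelihood test with the line as a block, 35 of 46 genes were past the 0.05 threshold after adjustment (11 higher, 24 lower). Of all 14290 genes in that fit 59.2% passed, 28.5% higher and 30.7% lower, so a large share of calls is the rule in these cells. Counts by module and by complex below stand beside these shares. The median log2 fold change was -0.79 over the 46 genes, against -0.07 over all genes. When libraries were scaled by their totals alone, the median of all genes moved to -0.65. The same test then called 4 subunit genes higher and 31 lower, where 13.4% of all genes were higher and 47.8% lower. The falls below held under both scalings, while of the rises MED19, MED26, MED7 and INTS1 passed under both, INTS11 and MED24 no longer passed, and MED11, MED16, MED25, INTS3 and INTS4 turned negative without passing. MED28 and MED30, which did not pass under TMM, passed as lower when scaled by totals (-0.43 and -0.53). They were not the only ones, as the 31 lower calls show, so below a gene that did not pass is one that did not under TMM. Bulk RNA cannot tell fewer cells of a kind from less RNA per cell. Without the 4 DLD1-labelled libraries 11 genes were higher and 23 lower.

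**Figure D1:**
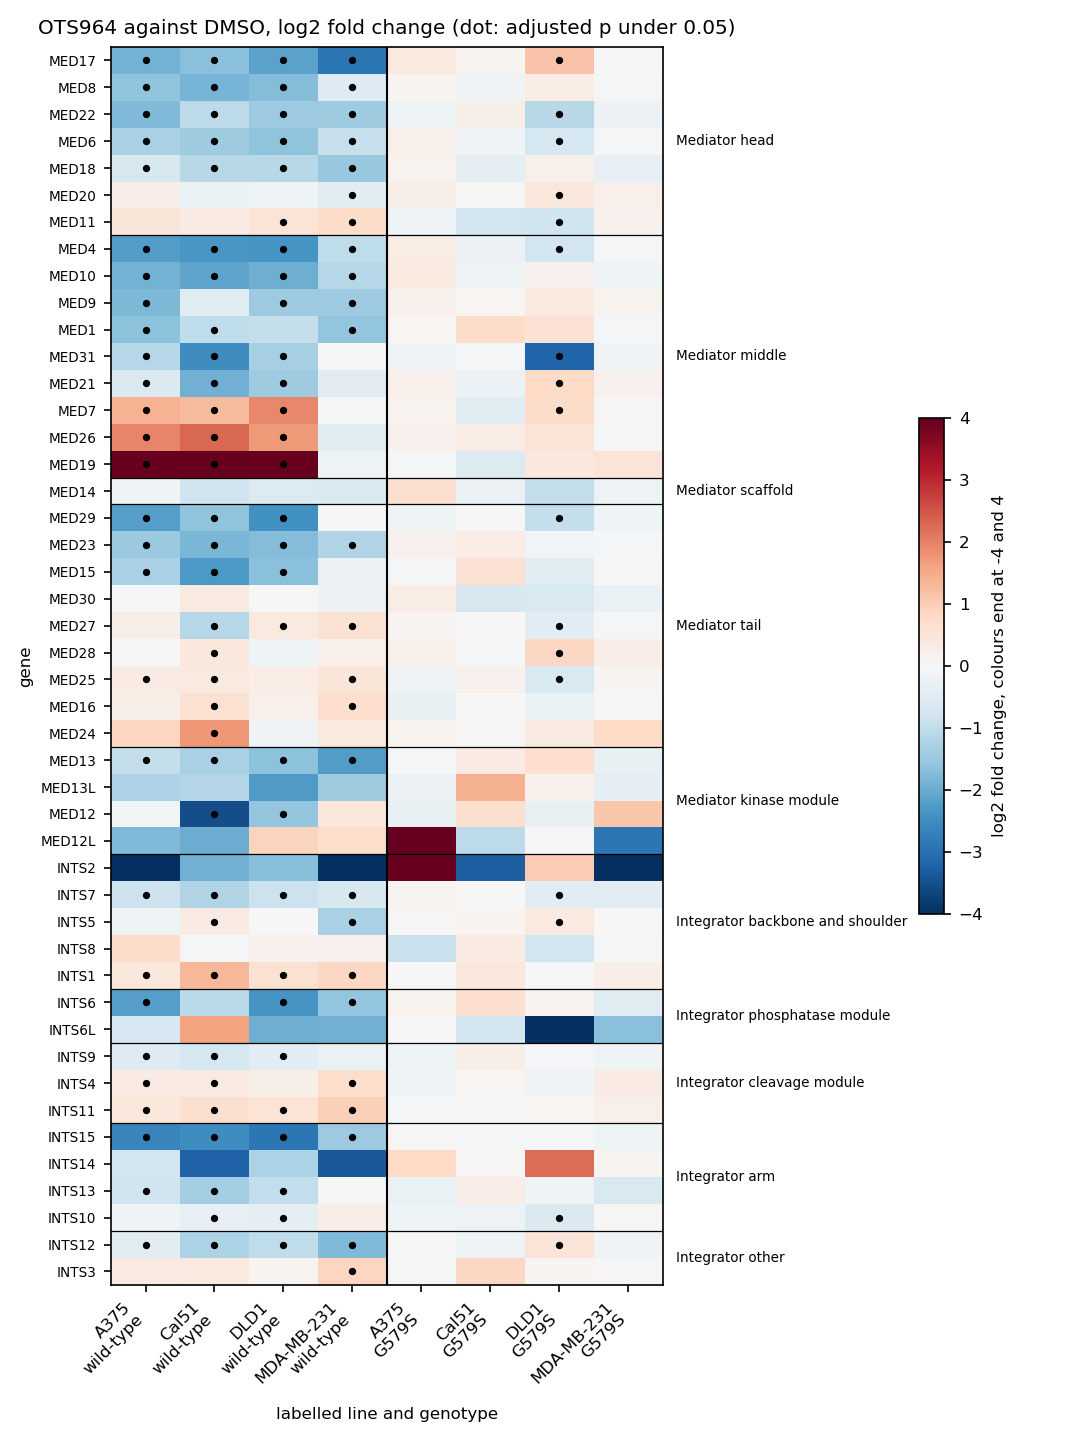
Log2 fold change of OTS964 against DMSO for each of the 46 genes (rows, by module) in wild-type and G579S cells of each labelled line (columns), with a dot where the adjusted p was under 0.05. Blue fills most of the wild-type columns and little of the G579S columns, apart from DLD1 G579S, where 17 genes carry a dot. Red cells for MED11, MED16, MED25, INTS3 and INTS4 turn negative across lines when libraries are scaled by totals.

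In the Mediator head, which docks on the polymerase, 5 of 7 genes fell and MED11 rose. MED17, the core of the head, had 4.78, 12.0 and 19.2 CPM as lowest, median and highest of the 8 wild-type OTS964 libraries, against 32.1, 55.7 and 63.9 CPM in the 8 DMSO libraries. The groups did not overlap, and the log2 fold change was -2.11 ± 0.19 (SE, adjusted p = 3.2e-07). MED6 and MED8, head subunits next to MED17, had 10.7 to 16.2 CPM and 9.51 to 37.1 CPM with OTS964, against 28.9 to 34.2 CPM and 37.4 to 71.9 CPM with DMSO, again without overlap. MED22 fell to 17.2 to 44.5 CPM, against 63.4 to 99.4 CPM with DMSO (log2 fold change -1.38 ± 0.12, adjusted p = 1.3e-07). Its partner in the head, MED11, had 12.4 to 27.9 CPM with OTS964, against 9.78 to 15.7 CPM with DMSO. The 2 proteins form a pair, but the mRNAs differed in direction under TMM scaling, and MED11 stood at -0.03 when scaled by totals. MED18, of the movable jaw, fell by 1.05 ± 0.15 on the log2 scale, while its jaw partner MED20 stood at -0.11 ± 0.13 and did not pass.

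All 9 genes of the middle module passed, 6 lower and 3 higher, where 59.2% of all genes passed (30.7% lower and 28.5% higher). MED4 had 4.97, 10.9 and 23.4 CPM as lowest, median and highest with OTS964, against 29.4, 36.1 and 60.7 CPM with DMSO. It fell without overlap (log2 fold change -1.94 ± 0.20, adjusted p = 9.2e-07). MED10, the subunit mRNA with the most TPM under DMSO, had 13.4 and 17.7 CPM in A375, 5.28 and 4.32 CPM in Cal51, 18.3 and 16.9 CPM in DLD1-labelled cells and 22.7 and 26.9 CPM in MDA-MB-231 cells of the wild-type with OTS964. With DMSO the same lines had 55.0 and 60.7, 19.6 and 21.8, 64.8 and 71.2, and 54.8 and 53.6 CPM. It was lower in every line (across lines -1.72 ± 0.12, adjusted p = 2.1e-08), although the 8 and 8 libraries overlapped, with Cal51 low under both treatments. MED1, which receives nuclear receptors, had 31.0 to 79.1 CPM with OTS964 and 103 to 144 CPM with DMSO. MED9, MED21 and MED31 also fell, by 1.26, 1.03 and 1.15 on the log2 scale.

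MED26, which hands the polymerase to elongation factors, went the other way. It had 136 and 124 CPM in A375, 103 and 100.1 CPM in Cal51 and 69.3 and 124 CPM in DLD1-labelled cells with OTS964, against 33.0 and 33.9, 22.4 and 18.6, and 29.4 and 30.7 CPM with DMSO. In MDA-MB-231 it had 22.5 and 17.3 CPM with OTS964, against 27.5 and 25.4 CPM with DMSO. It was higher in A375, Cal51 and DLD1-labelled cells and not in MDA-MB-231 (across lines 1.49 ± 0.35, adjusted p = 0.0018). DLD1-labelled cells stood near A375 by markers, so these may not be 3 distinct lines. MED7, at the hinge of the module, had 22.8 and 24.4, 20.4 and 20.5, and 37.1 and 24.2 CPM in A375, Cal51 and DLD1-labelled cells with OTS964, against 8.29 and 9.51, 8.17 and 8.77, and 8.01 and 8.31 CPM with DMSO. In MDA-MB-231 it had 5.54 and 9.23 CPM with OTS964, against 7.97 and 7.72 CPM with DMSO. Its rise followed the same split of lines (1.19 ± 0.27, adjusted p = 0.0016). MED19, also of the middle module, was listed at 0.111 to 0.672 CPM under DMSO, from the 1 transcript identifier that was matched. With OTS964 it had 2.36 to 8.41 CPM in A375, Cal51 and DLD1-labelled cells and 0.457 and 0.377 CPM in MDA-MB-231. Its log2 fold change of 3.55 ± 0.76 therefore rests on a level of less than 1 CPM under DMSO.

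**Figure D2:**
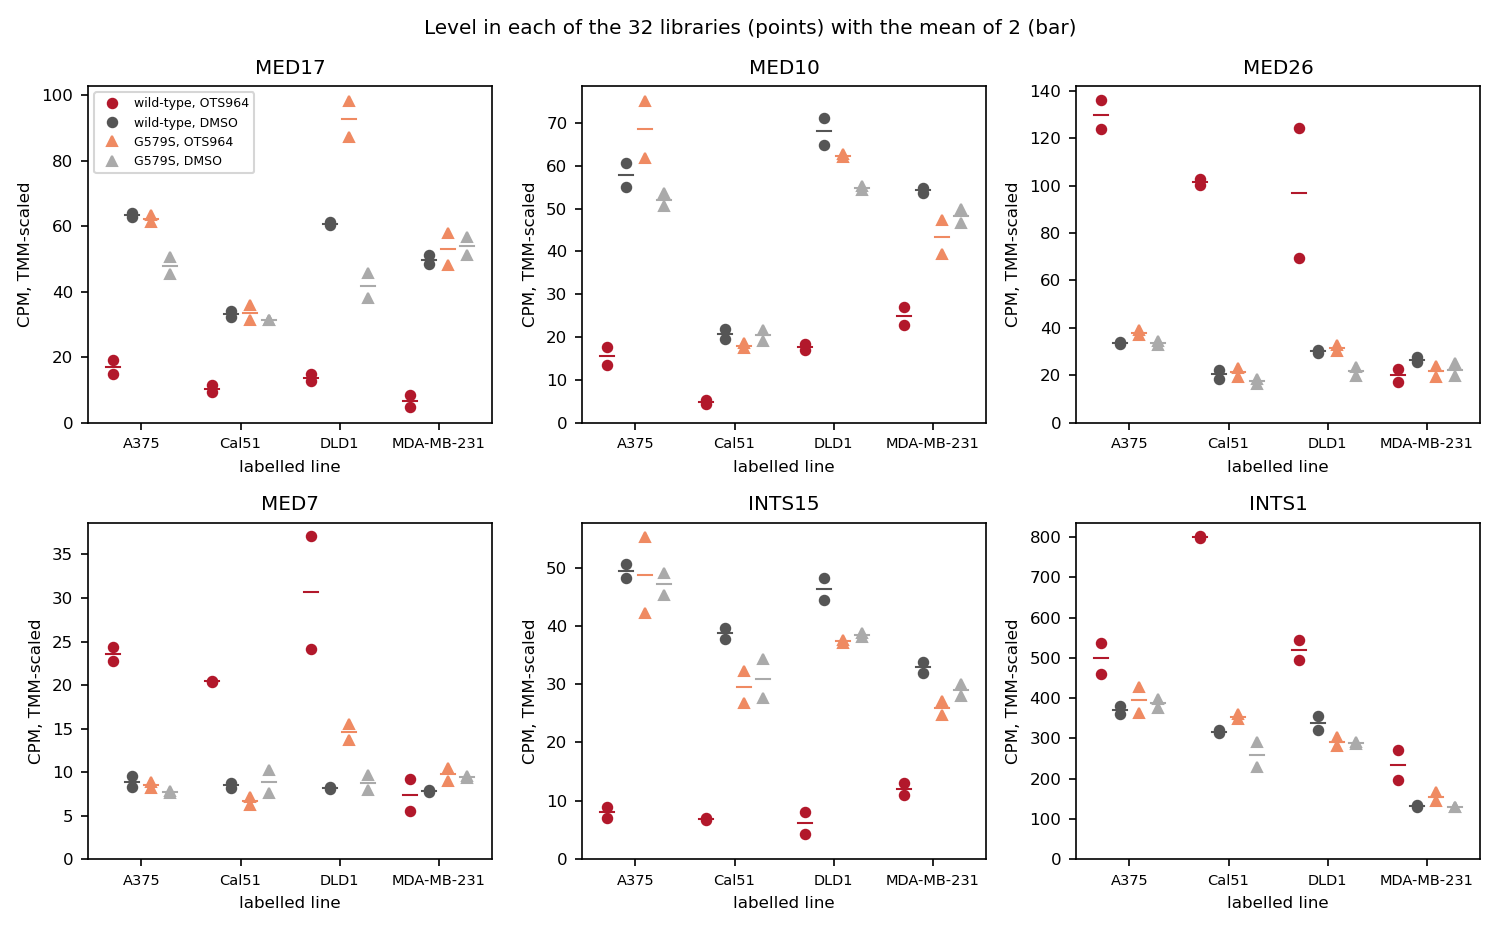
CPM after TMM scaling of 6 genes in every library (points; bar: mean of 2), by labelled line, with OTS964 left of DMSO and wild-type left of G579S. MED17, MED10 and INTS15 are low in wild-type OTS964 libraries of all labelled lines. MED26 and MED7 are high in A375, Cal51 and DLD1-labelled cells and not in MDA-MB-231. INTS1 is higher with OTS964 in each labelled wild-type line.

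MED14, the scaffold, had 26.4, 33.0 and 77.5 CPM with OTS964, against 25.9, 65.3 and 83.0 CPM with DMSO, as lowest, median and highest. The groups overlapped and it did not pass (-0.48 ± 0.22, adjusted p = 0.079). Of the 9 tail genes 3 fell, 3 rose and 3 did not pass, where 30.7% of all genes fell and 28.5% rose. MED23, a target of growth-factor and viral activators, had 6.38 to 12.4 CPM with OTS964, against 20.4 to 30.0 CPM with DMSO, without overlap (-1.53 ± 0.12, adjusted p = 4.6e-08). MED15, another activator-binding subunit, had 10.2 to 28.9 CPM with OTS964 in A375, Cal51 and DLD1-labelled cells, against 50.7 to 74.4 CPM with DMSO. In MDA-MB-231 it had 110 and 83.7 CPM with OTS964, against 118 and 112 CPM with DMSO. MED29 showed the same split, with 13.5 to 25.9 CPM with OTS964 in A375, Cal51 and DLD1-labelled cells, against 74.9 to 91.7 CPM with DMSO. In MDA-MB-231 it had 78.2 and 61.5 CPM with OTS964, against 71.0 and 71.7 CPM with DMSO. MED24, a subunit that pairs with MED16 and MED23 in the tail, rose across lines by 0.75 ± 0.23 on the log2 scale (adjusted p = 0.010), but only Cal51 passed on its own, with 53.6 and 65.4 CPM with OTS964 against 19.4 and 16.1 CPM with DMSO. MED16 and MED25 stood at 0.47 and 0.42, and at -0.12 and -0.18 when libraries were scaled by totals. MED27, MED28 and MED30 did not pass.

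Of the 4 genes of the kinase module 2 fell and 2 did not pass. MED13, which tethers the module, had 17.7, 40.5 and 48.7 CPM as lowest, median and highest with OTS964, against 87.6, 95.8 and 102 CPM with DMSO (-1.48 ± 0.21, adjusted p = 2.2e-05). Its paralog MED13L had 4.40 to 30.4 CPM with OTS964, against 31.3 to 76.3 CPM with DMSO. Neither pair of groups overlapped. MED12, which activates the kinase, depended on the line: 1.22 and 1.73 CPM in Cal51 and 9.94 and 9.99 CPM in DLD1-labelled cells with OTS964, against 27.4 and 7.32, and 33.1 and 26.0 CPM with DMSO. In A375 and MDA-MB-231 it had 17.8 and 34.0, and 23.8 and 27.7 CPM with OTS964, against 26.5 and 29.2, and 23.5 and 14.2 CPM with DMSO. Across lines it did not pass (-1.0 ± 0.48, adjusted p = 0.088). MED12L lay at 0 to 5.26 CPM with OTS964, with 4 of 8 libraries at 0, and at 0.149 to 2.84 CPM with DMSO. Reads shared by MED12 and MED12L, MED13 and MED13L, or INTS6 and INTS6L could have been split between the paralogs by the quantification.

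The kinases themselves are partners in a list beside the subunits. CDK8 was listed at 0 in 5 of 8 OTS964 libraries and at most 1.22 CPM in the others, against 3.55 to 9.35 CPM with DMSO (adjusted p = 0.00086). CCNC, the cyclin, had 17.6 to 61.2 CPM with OTS964 and 35.4 to 60.1 CPM with DMSO and did not pass, nor did CDK19. Thus under TMM scaling MED13, MED13L and CDK8 passed and MED12, CCNC and CDK19 did not. Scaled by totals, CCNC also passed as lower by the same test (-0.98, adjusted p = 0.00074). In that setting 2 of the 3 partners were lower, where 47.8% of all genes were.

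In Integrator 8 of 16 genes fell, 4 rose and 4 did not pass, where 30.7% of all genes fell and 28.5% rose. The falls include INTS14 and INTS2, which are not firm, as given below. INTS1, the large backbone subunit, had 538 and 459, 799 and 803, 496 and 543, and 270 and 196 CPM in A375, Cal51, DLD1-labelled and MDA-MB-231 cells with OTS964. With DMSO the same lines had 361 and 380, 320 and 313, 355 and 322, and 129 and 134 CPM. Under TMM scaling it was higher in each line, 1.80-fold across lines (log2 fold change 0.85 ± 0.11, adjusted p = 7.2e-06). Scaled by totals it stood at 0.25 on the log2 scale. Without the TMM factors INTS1 overlapped between treatments in A375 and DLD1-labelled cells, and stayed higher with OTS964 in Cal51 and MDA-MB-231. In TPM, which sums to the same total in each library, its median was 70.2 with OTS964 and 81.7 with DMSO, and its mean 70.4 ± 27.4 with OTS964 and 69.9 ± 22.5 with DMSO (SD, n = 8 each). INTS7, which sits beside it, had 19.1 to 54.1 CPM with OTS964, against 47.6 to 89.9 CPM with DMSO, and fell (-0.84 ± 0.09, adjusted p = 1.2e-06). INTS5 and INTS8 did not pass across lines.

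The cleavage module, INTS4, INTS9 and INTS11, was split. INTS11, the endonuclease, had 129 to 234 CPM with OTS964, against 83.4 to 105 CPM with DMSO. It was the 1 subunit gene that stood higher without overlap (0.68 ± 0.09, adjusted p = 1.2e-05), which 5.09% of all tested genes did, and its value was 0.09 when scaled by totals. In TPM the groups overlapped, with 60.1, 66.8 and 119 as lowest, median and highest with OTS964 and 67.5, 84.5 and 91.7 with DMSO. Its catalytically inactive partner INTS9 had 9.13 to 17.7 CPM with OTS964, against 14.5 to 21.9 CPM with DMSO, and fell (-0.45 ± 0.12, adjusted p = 0.0053). INTS4, the platform of the module, had 27.3 to 51.8 CPM with OTS964 and 21.7 to 42.1 CPM with DMSO (0.46 ± 0.08), and -0.13 when scaled by totals.

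INTS6, which brings PP2A, had 2.43, 8.79 and 13.0 CPM as lowest, median and highest with OTS964, against 21.9, 25.3 and 33.7 CPM with DMSO (-1.76 ± 0.25, adjusted p = 2.9e-05). The groups did not overlap. Its paralog INTS6L stayed under 3 CPM in every wild-type library and did not pass. The largest steady fall of Integrator was that of INTS15, which joins the arm of INTS10, INTS13 and INTS14. It had 7.03 and 8.96 CPM in A375, 6.78 and 7.11 CPM in Cal51, 4.30 and 8.14 CPM in DLD1-labelled and 13.1 and 11.1 CPM in MDA-MB-231 cells with OTS964. With DMSO the lines had 48.2 and 50.6, 39.7 and 37.7, 48.2 and 44.4, and 33.9 and 31.9 CPM. No library of one treatment reached the other, and the fall was 4.97-fold (-2.31 ± 0.17, adjusted p = 4.3e-08). INTS13, a docking subunit of the arm, fell by 0.73 ± 0.16 on the log2 scale, while INTS10 did not pass. INTS12, a PHD-finger subunit, had 4.47 to 12.9 CPM with OTS964, against 11.4 to 18.8 CPM with DMSO (-1.08 ± 0.20, adjusted p = 0.00032). INTS3, shared with a single-stranded DNA-binding complex, had 64.6 to 145 CPM with OTS964 and 44.8 to 143 CPM with DMSO (0.47 ± 0.10), and -0.13 when scaled by totals.

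INTS14 and INTS2 passed narrowly at low and erratic levels. INTS14 had 0 to 4.36 CPM with OTS964 and 0.767 to 8.09 CPM with DMSO (adjusted p = 0.041). Leaving out any 1 of 10 of the 16 libraries raised its adjusted p above 0.05, and so did leaving out the DLD1-labelled libraries (0.078). INTS2 was listed at 0 in 4 of 8 OTS964 libraries and 2 of 8 DMSO libraries (adjusted p = 0.038), and leaving out any 1 of 10 libraries ended that call. These 2 falls are therefore not firm.

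Over both complexes 12 genes were lower in all 8 OTS964 than in all 8 DMSO libraries, 10 of Mediator and 2 of Integrator, and INTS11 alone was higher; 10.1% of all tested genes were lower in this way. Without the DLD1-labelled libraries 13 were lower and INTS11 again alone higher, where 11.4% and 6.02% of all tested genes were. In summed CPM, the 30 Mediator genes had a median of 870 with OTS964 and 1275 with DMSO, and the 16 Integrator genes 1111 with OTS964 and 901 with DMSO. By the mean of each pair, INTS1 alone rose by more CPM than the Integrator sum in A375, Cal51 and DLD1-labelled cells. The other Integrator genes together thus summed to less there with OTS964, and to more in MDA-MB-231. In summed TPM Mediator had 384 with OTS964 and 847 with DMSO. Integrator had 267 with OTS964 and 433 with DMSO, so its order depended on the scale. Without the DLD1-labelled libraries Mediator had a median of 881 CPM with OTS964 and 1265 CPM with DMSO, and Integrator 1086 CPM with OTS964 and 835 CPM with DMSO.

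Within lines, 28 genes passed in A375 (7 higher, 21 lower), where 45.8% of all genes passed, 20.8% higher and 25% lower. In Cal51 33 passed (11 and 22), against 52.8% of all genes (24.9% and 27.8%). In DLD1-labelled cells 29 passed (7 and 22), against 50% (22.2% and 27.7%), and in MDA-MB-231 25 (8 and 17), against 46.5% (24.1% and 22.4%). Scaled by totals, the splits were 3 and 24, 5 and 30, 3 and 29, and 1 and 26. In that setting 6411, 7665, 7273 and 6523 of 14318 genes passed. Their medians over all genes were -0.48, -0.67, -0.65 and -0.39 on the log2 scale, so falls were favoured throughout. The A375 count fell to 18 without OTS964 replicate 1. After the split of lines had been seen, each line's response was tested against the mean of the other 3. In MDA-MB-231 20 genes differed, 13 with a higher and 7 with a lower log2 fold change, where 24.4% of all genes did (16.1% and 8.3%). In Cal51 12 differed (13.9%), in A375 3 (4.67%) and in DLD1-labelled cells 2 (4.85%). Against the mean of the other 2 lines, without the DLD1-labelled libraries, 22, 16 and 11 genes differed in MDA-MB-231, Cal51 and A375, where 3599, 2608 and 2345 of 14316 genes did. Of the genes given below, MED6 in MDA-MB-231 and MED24 in Cal51 did not pass in that test (adjusted p of 0.062 and 0.10).

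MDA-MB-231 lacked the rises of MED26, MED7 and MED19 and several falls of the other lines. For MED26 its log2 fold change was -0.41, against 1.96, 2.31 and 1.69 in A375, Cal51 and DLD1-labelled cells (difference -2.39 ± 0.24, adjusted p = 4.5e-07). For MED7 it was -0.09, against 1.40, 1.27 and 1.91 (difference -1.62 ± 0.26, adjusted p = 0.00013). The difference for MED19 was -4.68 ± 1.29 (adjusted p = 0.011), and -3.99 without MDA-MB-231 DMSO replicate 2, where the adjusted p was 0.071. For MED29 the value was -0.03, against -2.20, -1.62 and -2.44 (difference 2.06 ± 0.13, adjusted p = 2.9e-09). MED15, MED31 and MED8 differed by 1.51, 1.62 and 1.22 in the same sense. MED4 differed by 1.28, and by 0.72 without MDA-MB-231 OTS964 replicate 2. MED17 fell further in MDA-MB-231, by 2.93 on the log2 scale (difference -1.02 ± 0.22), and the difference was -0.67 without OTS964 replicate 1. INTS5 had 18.2 and 14.2 CPM with OTS964 in MDA-MB-231, against 37.9 and 42.1 CPM with DMSO, while the other lines stood at -0.16, 0.33 and -0.03 (difference -1.35 ± 0.14, adjusted p = 9.8e-07). INTS15 fell by 1.44 in MDA-MB-231, a difference of 1.22 that did not pass with curated transcripts alone (0.73, adjusted p = 0.15). INTS13 and MED12 differed by 1.09 and 2.19. Neither passed without MDA-MB-231 DMSO replicate 2 (adjusted p of 0.079 and 0.11), and INTS13 did not pass without OTS964 replicate 1 (0.087). MED10 and MED27 differed by 0.85 and 0.77 and kept their calls with any 1 library left out. MED21, INTS10, INTS12 and MED6 did not pass without OTS964 replicate 2, DMSO replicate 1, OTS964 replicate 1 and DMSO replicate 1 of that line (adjusted p of 0.079, 0.075, 0.067 and 0.064), and MED13, the last of the 20, did not pass without any 1 of 8 libraries. The 2 MDA-MB-231 OTS964 libraries were among the pairs least alike, and the part of that in these differences was not tested beyond leaving out each library.

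**Figure D3:**
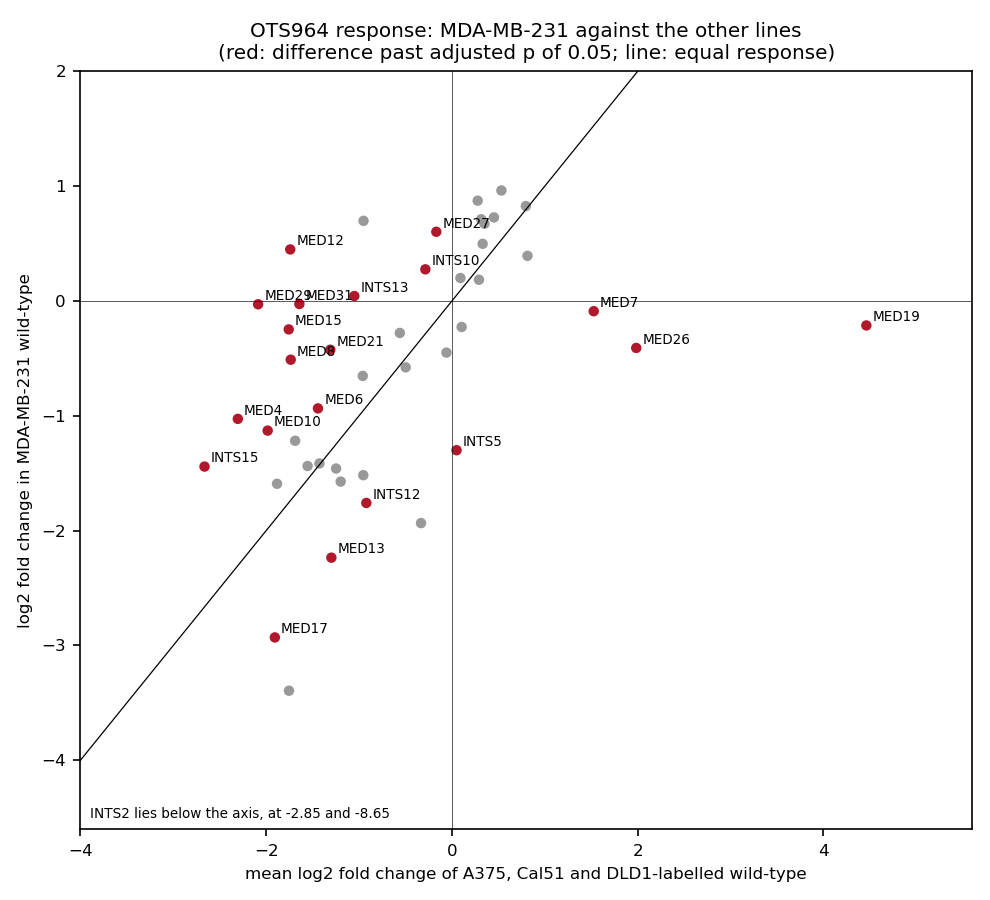
Log2 fold change of OTS964 against DMSO in MDA-MB-231 wild-type cells (vertical) against the mean of the other 3 wild-type lines (horizontal) for the 46 genes; red marks the 20 whose difference passed, and the line marks equal response. MED26, MED7 and MED19 lie far right of the line and MED29, MED31 and MED15 left of it near 0 on the vertical axis.

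In Cal51 the response of MED12 was lower than the mean of the others by 3.14 ± 0.70 on the log2 scale (adjusted p = 0.0048), or by 1.90 without DMSO replicate 1, where it did not pass (0.089). MED27 had 16.3 and 12.2 CPM with OTS964 in Cal51, against 30.6 and 31.6 CPM with DMSO, and stood at 0.22, 0.40 and 0.60 in the other lines (difference -1.53 ± 0.19, adjusted p = 1.4e-05). MED31, MED15 and MED21 fell further in Cal51, with differences of -1.64, -1.23 and -1.11. MED26, MED24 and MED9 stood higher, with differences of 1.23, 1.38 and 1.09, and that of MED24 did not pass when any 1 of 6 libraries was left out. INTS1, INTS5, MED8 and INTS7 made up the rest. In DLD1-labelled cells MED29 differed by -1.15 and MED7 by 1.05, and in A375 MED29, INTS12 and MED20 by -0.84, 0.89 and 0.57. Of these the calls of MED7, INTS12 and MED20 were lost when single libraries of their own line were left out.

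In G579S cells across lines no subunit gene passed by edgeR, where 2.61% of all genes did. An unadjusted p under 0.05 was found for 11, and the share of all genes with such a p is not given here or below. DESeq2 called 3 subunit genes, where it called 1778 of 14318 genes. The median log2 fold change was 0.02. The smallest adjusted p was that of MED20 (0.22 ± 0.06, adjusted p = 0.061). MED17 had 31.4 to 98.1 CPM with OTS964, against 31.3 to 56.8 CPM with DMSO, and INTS15 had 24.7 to 55.2 CPM, against 27.6 to 49.0 CPM. In G579S cells of A375, Cal51 and MDA-MB-231 taken alone no gene passed by edgeR, where 0.657%, 0.391% and 0.307% of all genes did. An unadjusted p under 0.05 was found for 2, 5 and 5 genes. DESeq2 called 2, 3 and 2, where it called 431, 553 and 417 of 14318 genes. The Cal51 result depended on Cal51 G579S DMSO replicate 1. Leaving it out makes replicate 2, which stood apart above, the lone DMSO library, so calls in that setting are not read here.

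DLD1 G579S cells differed from this, with 17 genes past the threshold, 7 higher and 10 lower, where 23.5% of all genes passed (10.8% and 12.7%). The colorectal markers in these libraries summed to a higher level with OTS964 than with DMSO, as given above, and their part in the result was not tested. MED31 had 0.953 and 0.634 CPM with OTS964, against 7.95 and 7.06 CPM with DMSO (-3.22 ± 0.31, adjusted p = 5.1e-07). MED22 had 47.0 and 47.6 CPM, against 99.9 and 104 CPM, and MED29 30.1 and 37.1 CPM, against 65.3 and 65.2 CPM. MED4, MED6, MED11, MED25, MED27, INTS7 and INTS10 were also lower. MED17 had 98.1 and 87.3 CPM with OTS964, against 38.0 and 45.7 CPM with DMSO, and rose by 1.15 ± 0.18 (adjusted p = 0.00012), opposite to its fall in every wild-type line. MED28 had 67.5 and 66.7 CPM, against 36.4 and 38.8 CPM (0.84 ± 0.14). MED21 and INTS12, lower in wild-type cells across lines, stood at 0.78 and 0.52 here, and MED7, MED20 and INTS5 were the other rises. Scaled by totals, 2 genes were higher and 15 lower, where 3360 of 14318 genes passed and the median of all genes was -0.23. Between 9 and 11 genes passed when 1 of the 4 libraries was left out.

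The difference of the responses, wild-type minus G579S across lines, was tested in 1 fit over all 32 libraries. It passed for 32 of 46 genes, 9 higher and 23 lower, where 50.1% of all genes passed (24.3% and 25.8%). Scaled by totals it was 2 and 27, where 6998 of 14318 genes passed and the median of all genes was -0.42. Without the libraries labelled DLD1 28 genes passed, where 6631 of 14288 did. MED17 differed by -2.56 ± 0.23 (adjusted p = 1.1e-09), INTS15 by -2.30 ± 0.21 (adjusted p = 1.6e-09) and MED10 by -1.82 ± 0.16 (adjusted p = 1.3e-09). MED4, MED23, MED29, INTS6 and INTS12 differed by -1.79, -1.65, -1.26, -1.92 and -1.17. Among the positive differences MED26, MED7, MED11, INTS1 and INTS11 stood at 1.20, 1.01, 0.92, 0.61 and 0.60. Of these MED11 alone still passed when scaled by totals, at 0.49. That is not a rise in wild-type cells, where MED11 was slightly negative when scaled by totals. In G579S cells across lines MED11 stood at -0.41 under TMM and did not pass. INTS4 differed by 0.39, and by -0.04 when scaled by totals. MED19 and INTS14 differed by 3.39 and -2.81, and neither passed without the libraries labelled DLD1 (adjusted p of 0.061 and 0.062).

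Under DMSO, G579S and wild-type cells of A375 showed no subunit gene past the threshold by edgeR, where 9.77% of all genes passed. An unadjusted p under 0.05 was found for 5 subunit genes. DESeq2 called 4, where it called 2127 of 14318 genes. In Cal51 3 passed (17% of all genes). INTS13 had 33.6 and 20.5 CPM in G579S cells, against 48.7 and 52.1 CPM in wild-type cells, MED18 had 24.1 and 30.6 CPM, against 16.9 and 18.3 CPM, and MED22 65.8 and 63.9 CPM, against 90.4 and 85.8 CPM. None of these calls held when G579S replicate 2 or either wild-type library was left out. Leaving out G579S replicate 1 makes replicate 2, which stood apart above, the lone G579S DMSO library, so calls in that setting are not read here. In MDA-MB-231 2 passed (7.3% of all genes): MED20 had 55.6 and 55.8 CPM in G579S cells, against 40.7 and 39.0 CPM in wild-type cells, and MED8 35.8 and 39.2 CPM, against 48.5 and 49.6 CPM. Neither passed with any 1 library left out. In DLD1 15 passed (49.2% of all genes), a comparison that rests on the DLD1-labelled wild-type libraries, whose markers differed as given above. INTS11 had 30.6 and 35.0 CPM in G579S cells, against 103 and 83.4 CPM (-1.51 ± 0.16, adjusted p = 1.8e-07), INTS3 61.6 and 59.4 CPM, against 143 and 116 CPM, and INTS13 27.4 and 25.3 CPM, against 61.0 and 41.9 CPM. INTS13 did not pass without wild-type replicate 1 (adjusted p = 0.071).

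Levels per length under DMSO were ordered over the 14 libraries other than the DLD1-labelled wild-type ones. MED10 stood first at 94.8 ± 34.2 TPM (SD, n = 14), followed by INTS11 at 76.7 ± 21.2, INTS1 at 65.0 ± 22.2, MED27 at 57.1 ± 8.35 and MED25 at 53.9 ± 11.1 TPM, neighbours that lie within 1 SD of each other. The median gene of both complexes stood at 24.1 TPM, against 12.3 TPM for all tested genes. MED17, at 23.4 ± 5.76 TPM, was ranked 24. At the low end came INTS14 at 2.21 ± 1.65, INTS2 at 1.82 ± 2.23, INTS6L at 0.714 ± 0.615, MED19 at 0.352 ± 0.238 and MED12L at 0.246 ± 0.300 TPM, whose spreads overlap. INTS6 stood at 6.37 ± 1.64 TPM, above INTS6L, and MED12 at 4.80 ± 1.62 TPM, above MED12L. Only 1 MED19 and 1 INTS2 transcript identifier was matched, and transcripts that were not matched are not used here.

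**Figure D4:**
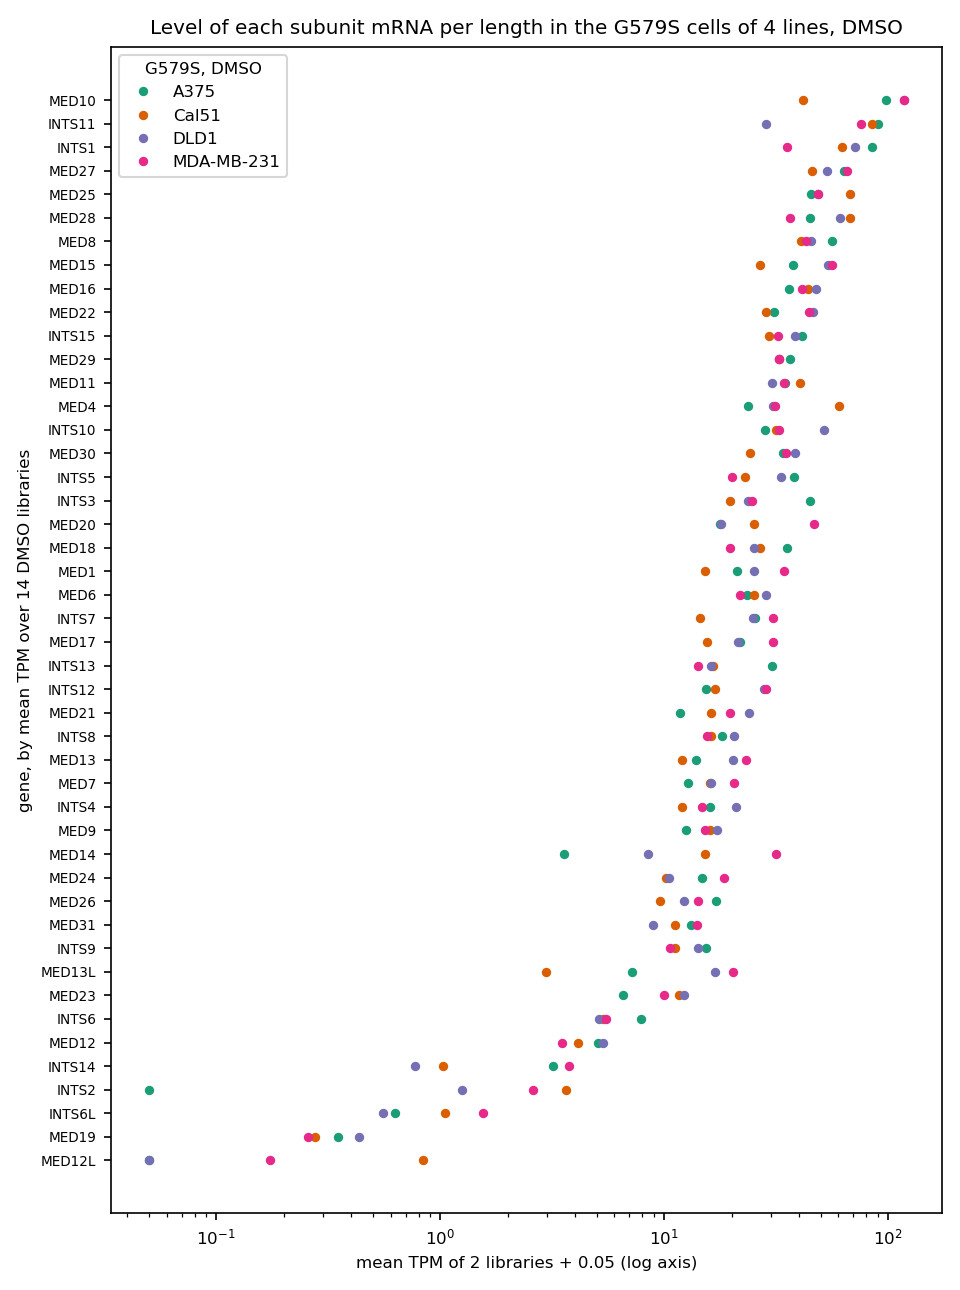
Mean TPM of 2 libraries (log axis, with 0.05 added) for each of the 46 genes in G579S cells of 4 lines under DMSO, ordered by the mean over 14 DMSO libraries. Most genes lie between 10 and 100 TPM, with MED12L, MED19, INTS6L, INTS2 and INTS14 at the bottom and DLD1 low for INTS11.

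Between the 4 G579S lines under DMSO, 31 of 46 genes differed in the edgeR F test, where 78.8% of all genes did. The lowest p-values were those of INTS1, INTS11, MED10 and INTS5. INTS1 had 377 and 398 CPM in A375, 290 and 228 CPM in Cal51, 291 and 287 CPM in DLD1 and 129 and 130 CPM in MDA-MB-231. INTS11 had 113 and 121, 92.8 and 111, 30.6 and 35.0, and 72.8 and 81.9 CPM in the same order. MED10 had 50.5 and 53.6, 19.0 and 21.7, 54.4 and 55.3, and 46.7 and 49.9 CPM, so that Cal51 was low. INTS5 had 74.9 and 81.4, 40.7 and 47.2, 62.8 and 57.9, and 33.0 and 32.6 CPM.

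Transcript usage could be tested for 21 of the 46 genes in wild-type cells, and none passed in edgeR's test of differential usage by gene, where 5.33% of 6403 genes did. INTS11 had the lowest p (0.0039, adjusted p = 0.064) and was the 1 gene with an unadjusted p under 0.05. One of its 4 tested transcripts took a larger share with OTS964 (log2 change of usage 2.32, adjusted p = 0.044 over transcripts). Without MDA-MB-231 OTS964 replicate 1, 1 of the subunit genes passed. MED22, MED4, MED6 and MED8 followed with adjusted p of 0.43, 0.62, 0.65 and 0.79.

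Other genes of the same machinery were counted from lists. Of 10 partners of Integrator 6 rose and 3 fell in wild-type cells across lines, where 28.5% of all genes rose and 30.7% fell. Scaled by library totals, a setting added for these genes after the data had been seen, 13.4% of all genes were higher and 47.8% lower, and of these 10 partners 3 were higher and 4 lower. PPP2R1A, the PP2A scaffold, had 657 to 1156 CPM with OTS964, against 359 to 455 CPM with DMSO (1.10 ± 0.08, adjusted p = 4.6e-08). NABP2, the partner of INTS3, had 87.5 to 155 CPM, against 22.8 to 86.9 CPM, and SEM1 69.8 to 233 CPM, against 36.4 to 99.4 CPM. WDR73, which aids Integrator assembly, and RPAP2, a phosphatase of the polymerase tail, fell by 1.61 and 2.18 on the log2 scale. Of 6 pausing factors 4 rose and 1 fell: NELFA had 5.45 to 15.5 CPM with OTS964, against 36.1 to 66.8 CPM with DMSO (-2.57 ± 0.21, adjusted p = 9.4e-08), while SUPT4H1 rose by 1.12 ± 0.10. Scaled by totals, 2 of the 6 were higher and 3 lower. Of 12 polymerase subunits 8 rose and 2 fell, and 6 were higher and 4 lower when scaled by totals. POLR2L and POLR2F, small shared subunits, stood at 1.39 and 1.08, and the falls were POLR2A, the catalytic subunit (-0.68 ± 0.12), and POLR2D, of the stalk (-1.50 ± 0.13). Of 5 genes of the small nuclear RNA activating complex 1 passed, SNAPC1, which fell by 1.62 ± 0.17. Scaled by totals, 3 of the 5 were lower. Without the DLD1-labelled libraries 5 of the 10 Integrator partners rose and 3 fell, and the other lists kept their counts. Of all genes 25.4% rose and 27.5% fell in that setting. PPP2R1A, NABP2, SEM1, SUPT4H1, POLR2L and POLR2F were past the threshold as higher under both scalings, at 0.51, 0.61, 0.56, 0.53, 0.79 and 0.49 on the log2 scale when scaled by totals.

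The GC content of the main transcript was available for 43 of the 46 genes, which are not independent replicates. The 10 risers with a value had a median GC content of 59.0% and the 23 fallers 46.1%, against 51.9% and 47.2% of all genes that rose and fell. MED7 at 40.0% GC rose and INTS15 at 60.5% GC fell.

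**Figure D5:**
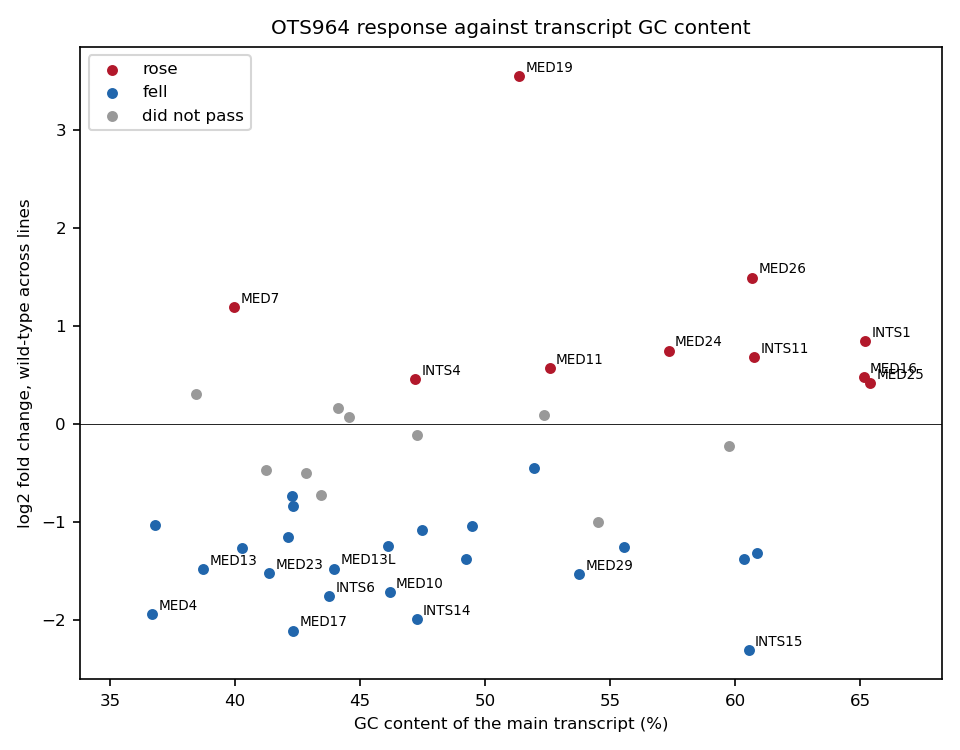
Log2 fold change of OTS964 against DMSO in wild-type cells across lines against the GC content of the main transcript for 43 genes (red: rose, blue: fell, grey: did not pass). Red and blue points overlap along the GC axis, with MED7 at 40.0% among the blue ones and INTS15 at 60.5% among the red ones, and MED7 and INTS4 are the leftmost red points; MED11, MED16, MED25 and INTS4 are slightly negative when libraries are scaled by totals.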

How the data were processed

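RNA from the 32 libraries was prepared with an mRNA kit, per the labels' protocols. The authors deposited, for each library, an estimated count and a TPM value per transcript. Builds listed in the submitters' processing notes, GRCm38 and mm10, are of mouse, whereas the identifiers matched human RefSeq, so the files give no coordinates here. Of 87398 transcript identifiers 42587 matched a gene, with 85.62 to 89.37% of the reads of a library. Estimated counts were summed by gene and rounded. edgeR 4.0.16 (R 4.3.3) was run with TMM scaling, its expression filter and robust quasi-likelihood F tests, with Benjamini-Hochberg adjustment over all genes at 0.05. One fit over 16 groups served contrasts within lines, and fits with the line as a block served those across lines. DESeq2 1.42.0 was an alternative, and the steps were tested on simulated data. Titles gave the groups. Library values are given, per complex, for the up to 5 largest rises and 5 largest falls past the threshold in wild-type cells, the up to 3 largest genotype differences of a line, the 4 lowest p-values between lines and 5 in usage, and subunits of known role; other members are given in ranges, and genes named for a line's own response were chosen after their values were seen. Tests of 1 line against the others, and the overlap, summed levels and partner genes without DLD1-labelled libraries or scaled by totals, were added after seeing the data. The members and lists were chosen with earlier results of these data known. Intervals of single counts are not given, and depth limits the precision of genes under 1 CPM.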

Additional observations from a re-analysis of the deposited data

Results flagged for a closer look

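A test of the difference between wild-type and G579S responses singled out 16 of the named genes. The difference, wild-type minus G579S on the log2 scale, was -2.56 for MED17, -2.30 for INTS15, -1.82 for MED10, -1.79 for MED4, -1.65 for MED23, -1.26 for MED29, -1.92 for INTS6, -1.17 for INTS12 and -2.81 for INTS14. It was 3.39 for MED19, 1.20 for MED26, 1.01 for MED7, 0.92 for MED11, 0.61 for INTS1, 0.60 for INTS11 and 0.39 for INTS4. MED19 and INTS14, both at low levels, did not pass without the libraries labelled DLD1.

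Tests of one wild-type line's response against the mean of the other 3, chosen after seeing the data, singled out further values. In MDA-MB-231 the difference was 2.06 for MED29, 1.62 for MED31, 1.51 for MED15, 1.28 for MED4, 1.22 for MED8, 1.22 for INTS15, 1.09 for INTS13 and 2.19 for MED12. There it was -2.39 for MED26, -1.62 for MED7, -4.68 for MED19, -1.02 for MED17 and -1.35 for INTS5. In Cal51 it was -3.14 for MED12, -1.64 for MED31, -1.53 for MED27, -1.23 for MED15, -1.11 for MED21, 1.38 for MED24, 1.23 for MED26 and 1.09 for MED9. In the DLD1-labelled cells it was -1.15 for MED29 and 1.05 for MED7. As given above, the calls of MED19, INTS13 and MED12 in MDA-MB-231 were lost when single libraries were left out. So were those of MED12 and MED24 in Cal51 and of MED7 in DLD1-labelled cells. INTS15 in MDA-MB-231 did not pass with curated transcripts alone.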

How the results depend on the processing

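Scaling by library totals turned 9 wild-type values across lines negative (INTS8 -0.28, MED27 -0.50, INTS3 -0.13, INTS4 -0.13, MED11 -0.027, MED16 -0.12, MED25 -0.18, MED28 -0.43 and MED30 -0.53) and the genotype difference of INTS4 (-0.043). It gave 1 call each for the genotype comparison in A375 and the response of MDA-MB-231 G579S, where 1465 and 33 of 14318 genes passed. DESeq2 called 3 genes in G579S across lines, 2 in A375, 3 in Cal51 and 2 in MDA-MB-231 G579S, and 4 between genotypes in A375. Its calls over all genes are given above. Between genotypes in MDA-MB-231 there was 1 call without a filter, 1 with counts rebuilt from TPM and 0 with the replicate block. With 1 library left out, counts ranged from 18 to 25 for wild-type A375, 0 to 2 for G579S across lines, 0 to 9 for Cal51 G579S, 9 to 11 for DLD1 G579S and 0 to 1 for usage; between genotypes they ranged from 0 to 8 in Cal51 and 9 to 11 in DLD1 and were 0 in MDA-MB-231. The highest Cal51 counts rest on G579S DMSO replicate 2 as the lone library of its group, and calls over all genes were also raised there. The cause was not tested. Replicate numbers did not pair the samples (correlation of deviations -0.03 to 0.07); with the replicate block 33 genes passed in wild-type cells across lines and 30 in the genotype difference.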
